A study of Mus musculus with 9 samples.

Results

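The *Cdkn1c*-*Kcnq1* domain is the imprinted gene cluster of distal mouse chromosome 7 that is controlled by the KvDMR. Its genes described here were *Cd81*, *Tssc4*, *Kcnq1*, *Kcnq1ot1*, *Cdkn1c*, *Slc22a18*, *Phlda2*, *Nap1l4*, *Osbpl5* and *Ano1*, in chromosomal order. They were taken by name, with identifiers of Ensembl release 96 matched to symbols, and all 10 were found among the 55450 genes counted. RNA was sequenced from 9 mice of a mixed 129Sv/c57BL6J background. There were 7 embryos at e13.5 of genotype *Sox2Egfp/+*, from which Rathke’s pouch was dissected, and 2 adults at 8 weeks, from which the pituitary was taken and the posterior lobe removed. Each library is a separate animal, so the libraries are biological replicates. By the study’s methods the embryos were 2 males and 5 females and the adults 1 male and 1 female, but sex is not given per sample. Libraries were poly(A)-selected and directional, and the strand-specific count of read pairs per gene was used. Between 16738863 and 28537311 read pairs were counted on genes in the embryos (median 24687556), and 36421545 and 31191117 in adults 1 and 2.

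The KvDMR is a stretch of DNA that is methylated on the maternal chromosome and holds the promoter of *Kcnq1ot1*, a long non-coding RNA transcribed from the paternal chromosome against the direction of *Kcnq1*. Transcription of *Kcnq1ot1* silences neighbouring genes on the paternal chromosome, so that *Cdkn1c*, *Phlda2*, *Slc22a18* and, in the early embryo, *Kcnq1* are expressed mainly from the maternal chromosome, whereas genes further out are imprinted chiefly in the placenta. *Cdkn1c*, an inhibitor of cyclin-dependent kinases, restrains growth and is known for its role in progenitors of Rathke’s pouch that leave the cell cycle. The counts do not tell the parental chromosomes apart, so every value below is the sum of both.

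In GRCm38 the 10 genes lie on chromosome 7 between 143052739, the start of *Cd81*, and 144751974, the end of *Ano1*. *Kcnq1ot1* (ENSMUSG00000101609, 143203458 to 143296549, minus strand) is annotated as a single unspliced transcript of 93092 bases within *Kcnq1* (ENSMUSG00000009545, 143106362 to 143427042, plus strand), and 121 bases of *Kcnq1* exons lie opposite it. *Cdkn1c* (ENSMUSG00000037664, 143458339 to 143461050, minus strand) starts 164.5 kb from the start site of *Kcnq1ot1*. *Ano1* (ENSMUSG00000031075, 144588549 to 144751974, minus strand) is the most distant, with its start site 1455.4 kb from that of *Kcnq1ot1*.

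Promoters are shown for the gene that holds the imprinting control region, for 2 genes that were higher in the embryo and for *Cd81*, whose groups overlapped. The RefSeq promoter table (GRCm38.p6, 250 bases before to 50 after each start) had windows for 7 of the 10 genes, and had none for *Cdkn1c*, *Kcnq1* or *Nap1l4*. Capitals mark the CCAAT box sequence (CCAAT), the TATA box sequence (TATAAA) and the GC box sequence (GGGCGG). Both strands were searched, and all matches in these 4 windows lie on the strand of the gene.
*Kcnq1ot1*, chr7:143296498-143296797, minus strand: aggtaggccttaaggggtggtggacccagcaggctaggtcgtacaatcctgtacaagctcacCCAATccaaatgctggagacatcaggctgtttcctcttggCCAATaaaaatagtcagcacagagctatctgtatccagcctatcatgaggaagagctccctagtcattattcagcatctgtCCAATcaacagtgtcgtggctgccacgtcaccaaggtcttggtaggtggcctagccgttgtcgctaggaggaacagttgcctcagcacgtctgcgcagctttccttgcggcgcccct
*Phlda2*, chr7:143502475-143502774, minus strand: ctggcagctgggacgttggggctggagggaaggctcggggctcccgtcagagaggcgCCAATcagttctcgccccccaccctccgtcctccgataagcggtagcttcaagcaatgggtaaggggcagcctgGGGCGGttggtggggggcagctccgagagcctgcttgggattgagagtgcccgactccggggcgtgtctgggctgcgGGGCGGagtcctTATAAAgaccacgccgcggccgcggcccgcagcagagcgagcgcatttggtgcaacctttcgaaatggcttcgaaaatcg
*Ano1*, chr7:144738524-144738823, minus strand: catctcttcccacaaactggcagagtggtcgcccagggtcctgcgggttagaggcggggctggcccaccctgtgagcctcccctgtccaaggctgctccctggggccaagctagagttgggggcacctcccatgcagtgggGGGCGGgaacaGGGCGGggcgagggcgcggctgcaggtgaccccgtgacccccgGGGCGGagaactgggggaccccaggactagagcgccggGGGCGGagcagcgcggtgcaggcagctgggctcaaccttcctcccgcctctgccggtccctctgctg
*Cd81*, chr7:143052500-143052799, plus strand: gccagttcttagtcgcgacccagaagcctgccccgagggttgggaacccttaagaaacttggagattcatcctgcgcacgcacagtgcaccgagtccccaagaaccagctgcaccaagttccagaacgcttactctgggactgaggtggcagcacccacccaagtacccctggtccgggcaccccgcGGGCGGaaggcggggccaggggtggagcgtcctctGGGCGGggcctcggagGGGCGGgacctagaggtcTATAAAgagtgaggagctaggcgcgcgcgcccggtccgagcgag

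The *Kcnq1ot1* window holds 3 copies of CCAAT, all on the strand of the RNA, with first bases 188, 148 and 67 bases before the start. Of all 32851 windows of 300 bases, 37.4% hold CCAAT at least once and 3.37% hold it 3 times or more. The *Phlda2* window holds CCAAT once, the GC box sequence 2 times and TATAAA, whose first base is 30 bases before the start. TATAAA is in 13.6% of all windows. The *Ano1* window holds GGGCGG 4 times, a number that 5.49% of all windows reach. The *Cd81* window holds it 3 times, and TATAAA after the start. CG occurs 9 times in the *Kcnq1ot1* window, 26 times in that of *Phlda2*, 18 times in that of *Ano1* and 23 times in that of *Cd81*, against a median of 7 over all windows. The RefSeq start of *Ano1* lies 13.4 kb inside the annotated gene and that of *Phlda2* 626 bases inside, so these windows do not lie at the outer edge of the annotated genes. A match of letters is a description and not a binding site.

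*Cdkn1c*, *Phlda2* and *Ano1* were higher in Rathke’s pouch than in the adult pituitary, with all 7 embryos above both adults and a fitted difference of more than 4-fold. *Kcnq1ot1*, from which the domain is controlled, varied more among embryos than between the stages, and *Cd81* and *Osbpl5* differed by less than 2-fold. Levels are given as CPM, the depth-scaled count, with TMM normalisation. Log2 fold changes are embryo over adult, with edgeR’s quasi-likelihood test and Benjamini–Hochberg adjustment over the 19371 genes whose mean count reached 5, and a gene was called at an adjusted p below 0.05 and a fold change above 4. All 10 genes passed that filter. *Phlda2*, with 0 read pairs in both adults, passed it through the embryos alone and could be called in their direction only. With at least 10 counts required in every library it is not tested, and 2 genes are called. Called higher in the embryo were 3 of 10, where 11.3% of all tested genes were called in that direction. edgeR called 0 of 10 higher in the adult, where 14.6% of all tested genes were, and DESeq2’s Wald test gave the same 3 and 0. At an unadjusted p below 0.05, 6 were higher in the embryo, where 27.4% of all tested genes were, and 1, *Kcnq1*, was higher in the adult, where 30.4% were. The median log2 fold change was 0.87 over the 10 genes, also with *Phlda2* at its lower bound, and −0.04 over all tested genes. With the correction for length and GC content these medians were 0.38 and 0.04. Over all tested genes the log2 fold change had a Spearman rank correlation of −0.39 with transcript length, so genes with shorter transcripts tended to be higher in the embryo. In bulk tissue, fewer cells of a type and less RNA per cell cannot be told apart.

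**Figure D1:**
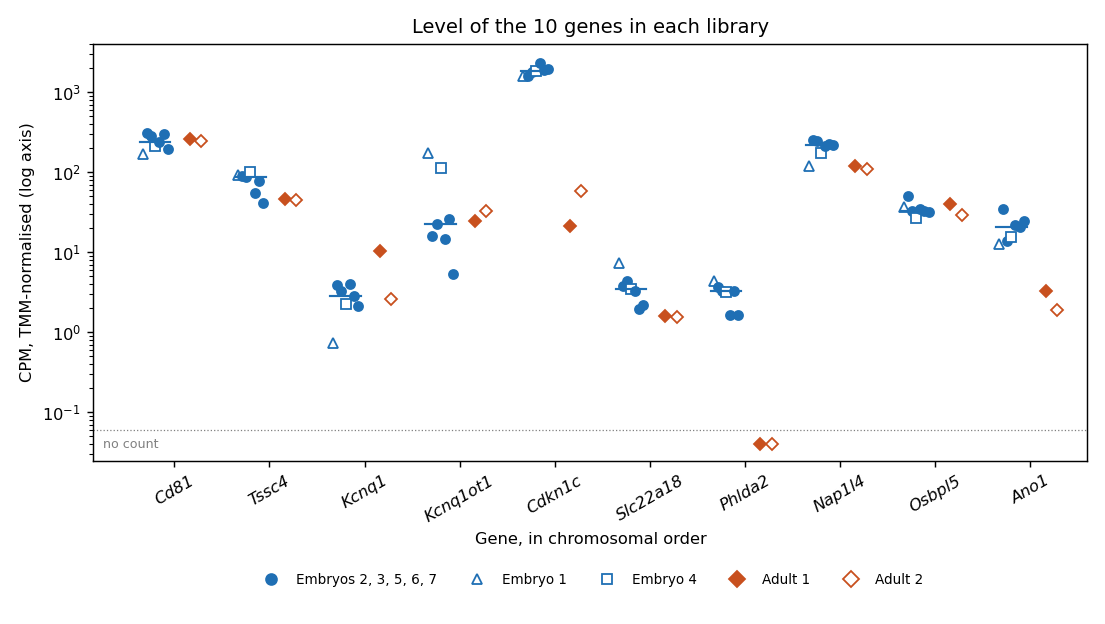
Level of each of the 10 genes in each of the 9 libraries, in CPM on a log axis, with genes in chromosomal order. Blue symbols are embryos, with embryos 1 and 4 open, blue lines are embryo medians, and orange diamonds are the adults. *Cdkn1c* stands far above its adults in all 7 embryos, neither adult had a read pair on *Phlda2*, and *Kcnq1ot1* is highest in embryos 1 and 4.

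*Cdkn1c* had the highest level of the 10 genes in the embryo, in CPM and per length of exon. It lay between 1573 CPM (embryo 2) and 2282 CPM (embryo 5), with a median of 1825 CPM. Only 0.289% of tested genes had a higher embryo median in CPM, a ranking that takes no account of gene length. Adult 1 had 21 CPM and adult 2 had 58.7 CPM. The embryos lay close together, within 1.45-fold of each other, whereas the adults differed by 2.79-fold, and the lowest embryo was far above the higher adult. The log2 fold change was 5.53 (standard error 0.50, 95% interval 4.45 to 6.61, adjusted p = 1.96e-06), a 46.2-fold difference. With adult 1 left out the log2 fold change was 4.97, and with adult 2 left out it was 6.45, so the size of the fold rests in part on which adult is taken. With the correction for length and GC content it was 4.90, the lowest over the alternatives, and the call was kept. The standard deviation of log2(CPM + 1) over the embryos was 0.18, and 93.5% of tested genes varied more. *Cdkn1c* supplied between 67.3% and 79.4% of the summed CPM of the 10 genes in each embryo, against 3.98% and 11.2% in adults 1 and 2.

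The 5 genes whose log2(CPM + 1) profile, centred over the 9 libraries, was nearest to that of *Cdkn1c* among the 12743 genes compared were *Crym*, *Igf2bp3*, *Tead2*, *Aif1l* and *Igf2bp1*. Their root mean square differences from it were 0.45 to 0.53 on the log2 scale. *Crym*, which encodes a thyroid hormone-binding protein, had an embryo median of 198 CPM and adult levels of 2.59 and 3.18 CPM. *Igf2bp1* and *Igf2bp3* encode RNA-binding proteins of early development. *Tead2*, a transcription factor of the Hippo pathway, had an embryo median of 434 CPM and adult levels of 5.84 and 5.74 CPM. Because they were chosen for likeness over these libraries, their direction follows from the choice, and their log2 fold changes, from 5.07 for *Aif1l* to 7.33 for *Igf2bp3*, are a description. That of *Igf2bp1* is not given, since its adult levels, 0.0485 and 0.0562 CPM, are under the level of 3 counts.

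On the strand opposite *Cdkn1c* the annotation places *Gm44732* (143459749 to 143460640), and 625 bases of exons, 98.4% of the exons of *Gm44732*, lie opposite exons of *Cdkn1c*. *Gm44732* was also called higher in the embryo (log2 fold change 5.21, standard error 0.65, adjusted p = 2.39e-05). Embryos had 52 to 190 read pairs on it, adult 1 had 3 and adult 2 had 6. For every 1000 read pairs on *Cdkn1c* there were 2.01 to 3.02 on *Gm44732* among embryos, 3.46 for adult 1 and 2.87 for adult 2. The adult ratios rest on 3 and 6 read pairs, and a difference between the stages was not tested. Read pairs on the opposite strand are found throughout the genome. Over the 9 libraries together they were 2.89 for every 1000 at *Cdkn1c*, with a median of 1.02 and an upper quartile of 1.86 over 2290 genes that had no overlapping gene and a mean count of 1000 or more, and 15% of those genes had more than *Cdkn1c*. Whether *Gm44732* is transcribed on its own was not tested. In the unstranded count, which discards read pairs that overlap both genes, *Cdkn1c* kept between 51.7% and 62.9% of its strand-specific count, and its call was the same.

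**Figure D2:**
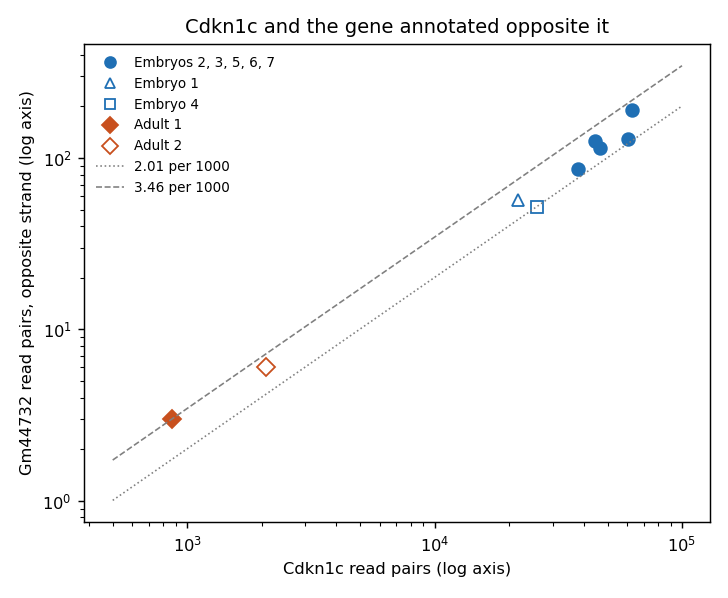
Read pairs counted on *Gm44732* against those on *Cdkn1c*, on opposite strands of the same stretch, in each of the 9 libraries on log axes. The lines mark the lowest and highest ratio, 2.01 and 3.46 for every 1000, among the 9 libraries.

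*Phlda2*, which encodes a small pleckstrin homology domain protein best known for limiting growth of the placenta, was detected in the embryos alone. The embryos had 45 to 108 read pairs, with a lowest level of 1.63 CPM (embryo 5), a highest of 4.40 CPM (embryo 1) and a median of 3.27 CPM. Both adults had 0 read pairs, and 3 counts, the limit that a count of 0 allows, correspond to 0.0727 CPM in adult 1 and 0.0843 CPM in adult 2. This limit covers counting error only. Against the higher limit, the median embryo was at least 38.7-fold higher and the lowest embryo at least 19.3-fold higher (edgeR adjusted p = 2.78e-05). With no adult count, its fitted log2 fold change depends on the constant that the model adds and is not given.

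*Slc22a18*, a transporter gene of the organic cation family next to *Phlda2*, lay between 1.93 CPM (embryo 6) and 7.40 CPM (embryo 1), with a median of 3.46 CPM. The adults had 1.58 and 1.55 CPM. All 7 embryos were above both adults, but the difference did not pass the test (log2 fold change 1.26, standard error 0.56, adjusted p = 0.0733). DESeq2’s Wald test put its adjusted p at 0.0374 and leaving out embryo 6 at 0.0464 (0.0374 to 1.0 over all alternatives), with a fold change still below 4. The upper end of this range, and of the later ranges of adjusted p, comes from the test against a fold change of 4. That test asks a different question from the other alternatives, among which the highest adjusted p of *Slc22a18* was 0.565. It came with the correction for length and GC content, which gave a log2 fold change of 0.33. Groups did not overlap, with the embryos above, for 4 of the 10 genes and for 26.2% of all tested genes.

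*Ano1*, a calcium-activated chloride channel at the far end of the cluster, was the third gene called. It lay between 12.7 CPM (embryo 1) and 34.5 CPM (embryo 2), with a median of 20.9 CPM. The adults had 3.32 and 1.91 CPM, and all 7 embryos were above them. The log2 fold change was 2.97 (standard error 0.48, 95% interval 1.95 to 3.99, adjusted p = 1.9e-04), and the lower end of the interval is just under a 4-fold difference.

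*Kcnq1ot1* did not separate the stages, because the embryos differed more among themselves than from the adults. Embryo 1 had 172 CPM and embryo 4 had 115 CPM, whereas the other 5 embryos lay between 5.29 CPM (embryo 7) and 26.2 CPM (embryo 6), with a median of 16.2 CPM. The adults had 24.6 and 33.2 CPM. Embryos 1 and 4 were 10.6 and 7.09 times the median of the other embryos, and over all 7 the highest was 32.5 times the lowest. Only 0.191% of tested genes had a larger standard deviation of log2(CPM + 1) over the embryos. The log2 fold change was 0.87 (standard error 0.99, 95% interval −1.24 to 2.98, adjusted p = 0.477). Without embryos 1 and 4 it was −0.76 (adjusted p = 0.157), so its sign turns on these 2 libraries. It was called in neither direction, except after a correction for length and GC content, which gave 3.82 (adjusted p = 3.3e-04, and 3.3e-04 to 1.0 over all alternatives). Of 14079 genes used to fit that correction, 2 have a longer transcript than *Kcnq1ot1*, so its value there is at the edge of the fitted range.

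Other measures set embryos 1 and 4 apart as well. The share of read pairs assigned to a gene was 59.7% and 62.8% in them and 73.9% to 80.0% in the remaining embryos. The share aligned to several places was 21.7% and 26.1%, beside 14.1% to 19.7%, and the share not aligned was 10.3% and 4.74%, beside 0.863% to 2.54%. The red blood cell markers *Hbb-bt*, *Hba-a1*, *Hbb-y* and *Alas2* summed to 134899 CPM in embryo 1 and 175692 CPM in embryo 4, 5279 to 15575 CPM in the other embryos, and 291 and 619 CPM in the adults. *Hbb-y*, an embryonic globin, was the most abundant of them in the embryos and the least abundant in the adults (0.218 and 0.112 CPM). *Malat1*, a nuclear non-coding RNA, had 2217 CPM in embryo 1 and 1011 CPM in embryo 4, 45.1 to 257 CPM in the other embryos, and 447 and 570 CPM in the adults. The part of any of these measures in the level of *Kcnq1ot1* was not tested.

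**Figure D3:**
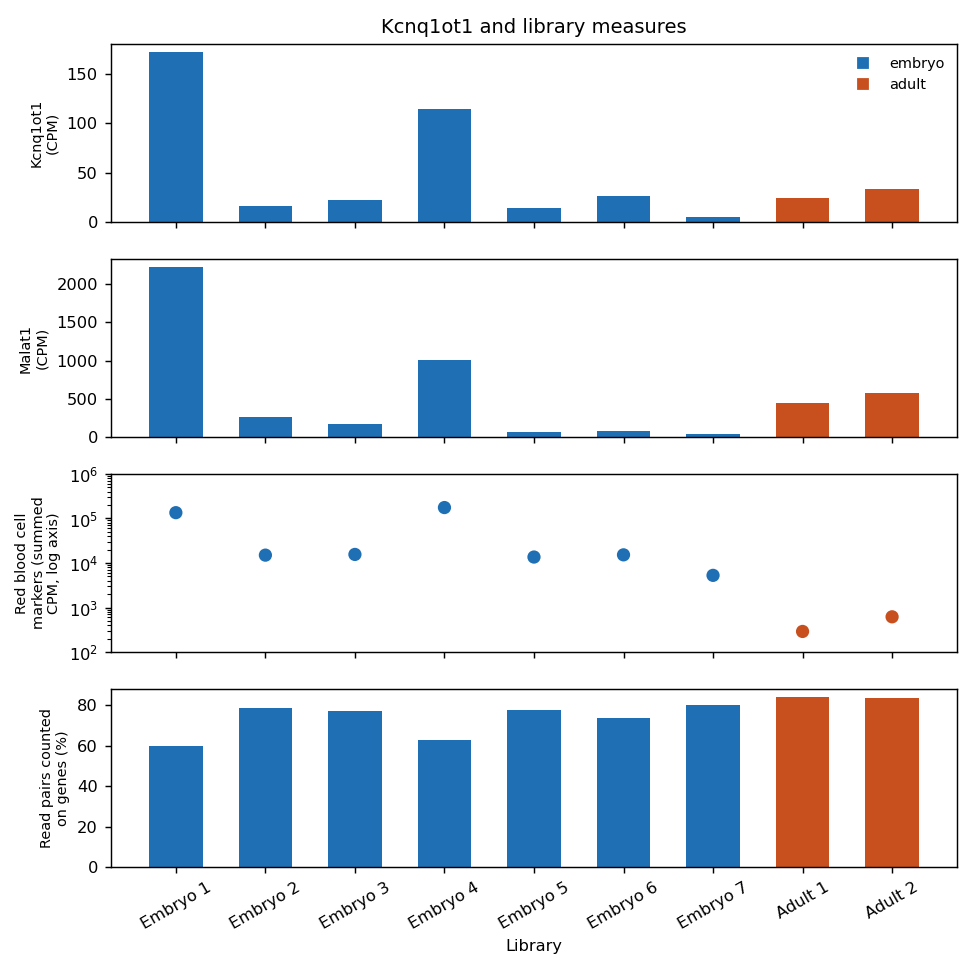
*Kcnq1ot1* and *Malat1* in CPM, the summed CPM of 4 red blood cell markers (log axis), and the percentage of read pairs counted on genes, in each of the 9 libraries. Blue is embryo and orange is adult. Embryos 1 and 4 are highest in the upper 3 panels and lowest in the fourth.

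The genes whose profile was nearest to that of *Kcnq1ot1*, by the same measure, were *Gm17066*, *BC005561*, *Pdzk1ip1*, *A930004J17Rik* and *4632427E13Rik*, with root mean square differences from 0.28 to 0.55. *Pdzk1ip1*, a small membrane protein gene, had 122 and 119 CPM in embryos 1 and 4, at most 12.4 CPM in the other embryos, and 15.2 and 13.4 CPM in the adults. *BC005561* had 76.5 and 39.9 CPM in embryos 1 and 4 and at most 8.94 CPM in the other embryos. None of these 5 genes was called. Because they were chosen for likeness to *Kcnq1ot1*, this and their high levels in embryos 1 and 4 follow from the choice. Other non-coding RNAs fixed as a list were *Malat1*, *Neat1*, *Airn*, *Meg3*, *Rian*, *Mirg* and *Snhg14*. Of these, 2 of 7 were called, both higher in the adult (*Neat1* and *Meg3*), where 14.6% of all tested genes were. The median log2 fold change of the list was −1.38. Without embryos 1 and 4, *Malat1* (−2.04) and *Snhg14* (−2.35) were called higher in the adult as well, which makes 4 of 7. *Airn*, the RNA of the *Igf2r* domain that like *Kcnq1ot1* silences its neighbours on the paternal chromosome, had 5.93 to 11.9 CPM in the embryos and 4.87 and 5.40 CPM in the adults (log2 fold change 0.80, standard error 0.38, adjusted p = 0.0871). Embryos 1 and 4 were the highest embryos for *Airn* and for *Meg3*, an RNA of another imprinted domain, which had 566 and 472 CPM in them and 95.4 to 164 CPM in the other embryos. For *Rian*, of the same domain as *Meg3*, embryo 1 was the lowest, at 267 CPM, and embryo 4, at 357 CPM, lay within the 339 to 570 CPM of the other embryos.

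*Kcnq1*, a voltage-gated potassium channel subunit, was low at both stages, and its adults differed by a larger ratio than those of the other 8 genes with adult counts. Adult 1 had 10.4 CPM from 427 read pairs, and adult 2 had 2.59 CPM from 92. The lowest embryo had 0.733 CPM (embryo 1, 10 read pairs) and the highest 4.06 CPM (embryo 5), with a median of 2.87 CPM. Adult 1 was above every embryo, and adult 2 lay among them. The log2 fold change was −1.23 (standard error 0.56, 95% interval −2.44 to −0.02, adjusted p = 0.0814). It was −1.91 (adjusted p = 0.0349, and 0.0326 to 1.0 over all alternatives) with adult 2 left out and 0.09 with adult 1 left out, so adult 1 alone carries the direction. With both adults kept, its adjusted p was 0.0326 with the correction for length and GC content and 0.0447 with at least 10 counts in every library, at fold changes below 4.

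The remaining 4 genes were not called. *Cd81*, a tetraspanin of the cell surface, lay between 168 CPM (embryo 1) and 312 CPM (embryo 2), with a median of 242 CPM, and 262 and 243 CPM in the adults. The groups overlapped fully, and the 95% interval of the log2 fold change, −0.66 to 0.54, leaves out a 2-fold difference in either direction. With the correction for length and GC content its log2 fold change was −0.86 (adjusted p = 0.00169, and 0.00169 to 1.0 over all alternatives). *Osbpl5*, a lipid transfer protein of the oxysterol-binding family, had 26.8 to 49.8 CPM (median 32.9 CPM) in the embryos and 39.8 and 29.0 CPM in the adults. Its interval, −0.55 to 0.62, leaves out a 2-fold difference as well.

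*Nap1l4*, a histone chaperone, and *Tssc4*, a spliceosome assembly factor, had higher embryo medians. *Nap1l4* lay between 118 CPM (embryo 1) and 251 CPM (embryo 2), with a median of 222 CPM, and 120 and 108 CPM in the adults. Embryo 1 lay between the adults and the other 6 embryos were above both. Its difference passed the adjusted p but not the fold threshold (log2 fold change 0.86, standard error 0.30, adjusted p = 0.0286). It missed the adjusted p with library size alone (0.16), the block on replicates (0.243) and the correction for length and GC content (0.0824). It also missed it with adult 1 left out (log2 fold change 0.94) or adult 2 left out (0.79). The range over all alternatives was 0.00276 to 1.0, with its upper end from the test against a fold change of 4. With the 3 called genes, 4 of the 10 were higher in the embryo at an adjusted p below 0.05, where 24% of all tested genes were. In the adult direction 0 of the 10 genes and 27.4% of all tested genes passed it. *Tssc4* lay between 41.7 CPM (embryo 7) and 99.3 CPM (embryo 4), with a median of 87.5 CPM, and 46.0 and 44.6 CPM in the adults. Embryo 7 was below both adults and the other 6 were above them, and the difference did not pass the test (log2 fold change 0.78, standard error 0.33, adjusted p = 0.0625). Its adjusted p was 0.0136 with embryo 7 left out and 0.0422 with the block on replicates (0.0136 to 1.0 over all alternatives), and its log2 fold change was 0.02 with the correction for length and GC content.

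Embryo 1, the library with the fewest counted read pairs, stood outside the range of embryos 2, 3, 5, 6 and 7 for 8 of the 10 genes, as it did for 53.5% of all tested genes. It was above them for *Tssc4*, *Kcnq1ot1*, *Slc22a18* and *Phlda2* and below them for *Cd81*, *Kcnq1*, *Nap1l4* and *Ano1*. Embryo 4 was above them for *Tssc4* and *Kcnq1ot1* and below them for *Nap1l4* and *Osbpl5*, 4 of the 10 genes, where 43.6% of all tested genes lay outside. *Cdkn1c* was within their range in both. Without these 2 embryos the 3 calls were kept, at log2 fold changes of 5.59 for *Cdkn1c* and 3.15 for *Ano1*, and no other of the 10 genes was called.

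Levels can be compared between genes only per length of exon. In the embryo the median CPM per kb was 895 for *Cdkn1c*, 83.9 for *Cd81*, 71.6 for *Nap1l4*, 47.4 for *Tssc4* and 6.70 for *Osbpl5*. It was 3.35 for *Ano1*, 2.92 for *Phlda2*, 2.03 for *Slc22a18*, 0.702 for *Kcnq1* and 0.243 for *Kcnq1ot1*. The value of *Kcnq1ot1*, the lowest, is taken over its 93092 annotated bases. How fully poly(A) selection captured this unspliced RNA was not tested. The ranges over embryos did not overlap between *Cdkn1c* and *Cd81*, between *Tssc4* and *Osbpl5* or between *Slc22a18* and *Kcnq1*, and overlapped between all other neighbours in this order. In the adults *Cd81* was first, at 87.7 CPM per kb, followed by *Nap1l4* at 36.9, *Tssc4* at 24.6 and *Cdkn1c* at 19.6, which was above *Tssc4* in adult 2 and below it in adult 1.

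The annotation holds 56 genes from the start of *Th* to the end of *Ano1*, a stretch of 1859.2 kb, and 27 of them were tested. Beside the 10 genes, 17 were tested. Of these, 3 were called higher in the embryo, where 11.3% of all tested genes were, and 1 higher in the adult, where 14.6% were. The median log2 fold change of the 17 genes was −0.002. The called genes were *Tspan32*, *Trpm5*, *Gm44732* and *Shank2*. Since *Gm44732* lies opposite *Cdkn1c* and its own transcription was not tested, its call cannot be taken as separate from that of *Cdkn1c*. *Tspan32*, a tetraspanin of blood cells, had 10.8 and 11.1 CPM in embryos 1 and 4, 0.834 to 2.53 CPM in the other embryos, and 0.145 and 0.534 CPM in the adults (log2 fold change 3.64, standard error 1.18, adjusted p = 0.0188). Without embryos 1 and 4 its log2 fold change was 2.29. *Trpm5*, a cation channel gene that overlaps *Tssc4* on the opposite strand, had 6.46 to 14.6 CPM in the embryos and 2.13 and 1.88 CPM in the adults (log2 fold change 2.31, standard error 0.44, adjusted p = 6.58e-04). *Shank2*, a scaffold protein of synapses, was called higher in the adult, with 1.76 to 5.10 CPM in the embryos and 33.2 and 31.7 CPM in the adults (log2 fold change −3.26, standard error 0.34, adjusted p = 6.05e-06). *Cdkn1c*, with *Gm44732* opposite it, and *Phlda2* were the called genes nearest to *Kcnq1ot1* on the far side of its start. Between *Cdkn1c* and *Phlda2*, *Slc22a18* was not called. The tested genes beyond *Phlda2* and before *Shank2*, from *Nap1l4* to *Dhcr7*, were not called.

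**Figure D4:**
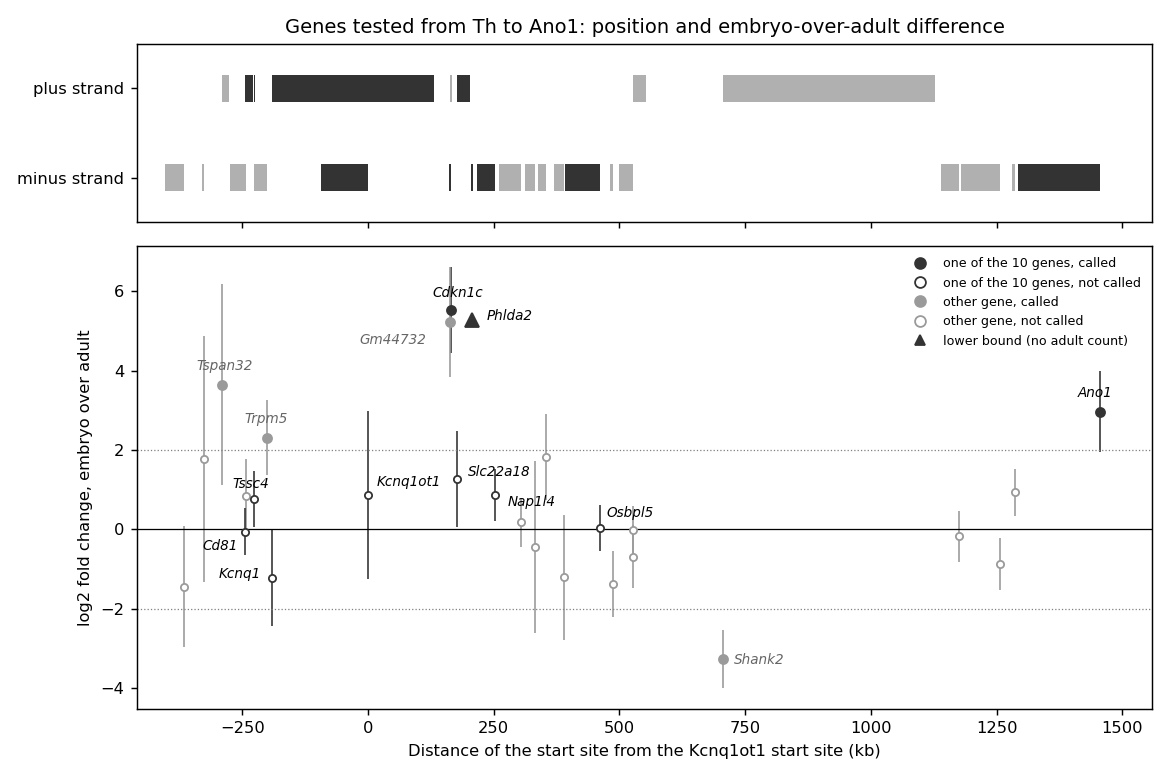
Position and strand of the 27 tested genes from *Th* to *Ano1* (upper panel, distance from the *Kcnq1ot1* start site in kb) and their log2 fold change, embryo over adult, with 95% intervals (lower panel). Dark symbols are the 10 genes, grey symbols are other genes, filled symbols were called, dotted lines mark a 4-fold difference, and the triangle is the lower bound of *Phlda2*. Called genes lie on both sides of *Kcnq1ot1*, with uncalled genes between them.

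The lists from here on are to be read beside all tested genes, of which 11.3% were called higher in the embryo and 14.6% higher in the adult. At an adjusted p below 0.05 alone, these shares were 24% and 27.4%. Genes of the cluster outside the 10, *Th*, *Ascl2*, *Tspan32*, *Tnfrsf26*, *Tnfrsf22*, *Tnfrsf23* and *Dhcr7*, gave 1 call of 7, that of *Tspan32*. *Tnfrsf22*, a decoy receptor of the tumour necrosis factor family, had an adjusted p of 0.00805 at a log2 fold change of 1.82, below the fold threshold. *Th*, the enzyme that starts catecholamine synthesis, had 0.423 to 2.84 CPM in the embryos and, like *Kcnq1*, was higher in adult 1 (6.21 CPM) than in adult 2 (1.12 CPM).

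Of the other Cip/Kip and INK4 inhibitors, *Cdkn1a*, *Cdkn1b*, *Cdkn2a*, *Cdkn2b*, *Cdkn2c* and *Cdkn2d*, 0 of 6 were called by edgeR, 2 passed the adjusted p in the adult direction and 0 in the embryo direction, and the median log2 fold change was −0.73. *Cdkn1b*, of the same Cip/Kip family, had 27.1 to 67.1 CPM in the embryos and 156 and 160.0 CPM in the adults (log2 fold change −1.66, standard error 0.28, adjusted p = 2.77e-04). Per kb of exon *Cdkn1b* stood at 11.3 CPM in the median embryo and 34.7 CPM in the mean adult, so that *Cdkn1c* was above it in the embryo and below it in the adult mean. Of the cyclins and kinases that these inhibitors act on, 4 of 9 were called higher in the embryo (*Ccnd3*, *Ccne1*, *Cdk2* and *Cdk4*) and 0 in the adult direction, with a median of 1.65. *Ccnd2* (−1.27, adjusted p = 0.00183) and *Cdk6* (−1.21, adjusted p = 0.0156) were lower in all 7 embryos than in both adults, below the fold threshold. *Cdk4* had 736 to 1612 CPM in the embryos and 181 and 138 CPM in the adults.

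Among relatives of the other genes, the direction was mixed. Of the *Kcnq* and *Kcne* genes listed, 6 of 8 were tested, *Kcne3*, *Kcne4* and *Kcne1l* were called higher in the embryo and *Kcnq3* higher in the adult. *Phlda3* was called higher in the embryo, but its log2 fold change of 2.15 was 1.83 without embryos 1 and 4, which ends the call, and *Phlda1* was not called (log2 fold change 1.34, adjusted p = 0.0156). For the other *Nap1l* genes 3 of 4 were called higher in the adult (*Nap1l2*, *Nap1l3* and *Nap1l5*, the last itself imprinted, at −5.27), and *Nap1l1* was not called. Of 11 oxysterol-binding relatives of *Osbpl5*, 1 was called, *Osbp2*, higher in the adult (−2.05, and −1.66 without embryos 1 and 4, which ends the call), and 6 were lower in the embryo at an adjusted p below 0.05. Of 9 anoctamins other than *Ano1*, 5 were called higher in the adult (*Ano2*, *Ano3*, *Ano4*, *Ano5* and *Ano7*) and 0 higher in the embryo, with a median of −2.32. Of 8 tetraspanins and partners of *Cd81*, 1 was called, *Ifitm3*, higher in the adult, with a median of 0.01. Of 6 *Slc22* transporters, *Slc22a3* was called higher in the embryo and *Slc22a4* higher in the adult, with a median of −0.61. Of 10 genes of the machinery known to act in imprinted silencing, 1 was called, *Cbx7*, higher in the adult, with a median of 0.38.

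Markers of other cell types moved between the stages beside these genes. Most abundant means the highest embryo median, or the highest adult mean for the hormone cell genes. Single libraries could differ, as in adult 1, where *Prl* (62124 CPM) was above *Gh* (53470 CPM). Of the Rathke’s pouch factors, 2 of 7 were called higher in the embryo (*Lhx4* and *Hesx1*), and their sum ran from 644 to 1526 CPM in the embryos (most abundant *Pitx1*) and was 629 and 546 CPM in the adults. *Sox2* of the same list, for which the embryos carry the *Sox2Egfp* allele, was lower in all 7 embryos than in both adults (−0.70, adjusted p = 0.0282). Of the hormone cell genes, 10 of 11 were called higher in the adult, where they summed to 152901 and 160509 CPM (most abundant *Gh*), against 889 to 1940 CPM in the embryos. Mesenchyme markers were called higher in the embryo for 5 of 6, with sums of 586 to 2146 CPM (most abundant *Col3a1*) against 548 and 338 CPM. Cartilage and muscle markers were called for 5 of the 5 tested, with 157 to 369 CPM (most abundant *Col2a1*) against 14.1 and 7.76 CPM, and *Myh3* and *Myod1* at 0 in both adults. Endothelial markers were called for 1 of 5, *Emcn*, and without embryos 1 and 4 also for *Cdh5* and *Tie1*, with 142 to 507 CPM against 121 and 72.9 CPM. Macrophage markers were called for 1 of 5, with log2 fold changes above 0 for the other 4, and summed to 110 to 278 CPM (most abundant *C1qb*) against 82.8 and 130 CPM, with *Ptprc* called higher in the adult and *C1qb* higher in the embryo at an adjusted p of 0.035, below the fold threshold. Of the neural and posterior lobe markers, *Nkx2-1* and *Rax* were called higher in the embryo and *Avp* and *Oxt* higher in the adult, the list summed to 107 to 438 CPM (most abundant *Tubb3*) against 108 and 77.7 CPM, and *Avp* was at 0 in all 7 embryos. Red blood cell markers were called higher in the embryo for 3 of 4. The part of these cell types in the differences of the 10 genes was not tested.

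**Figure D5:**
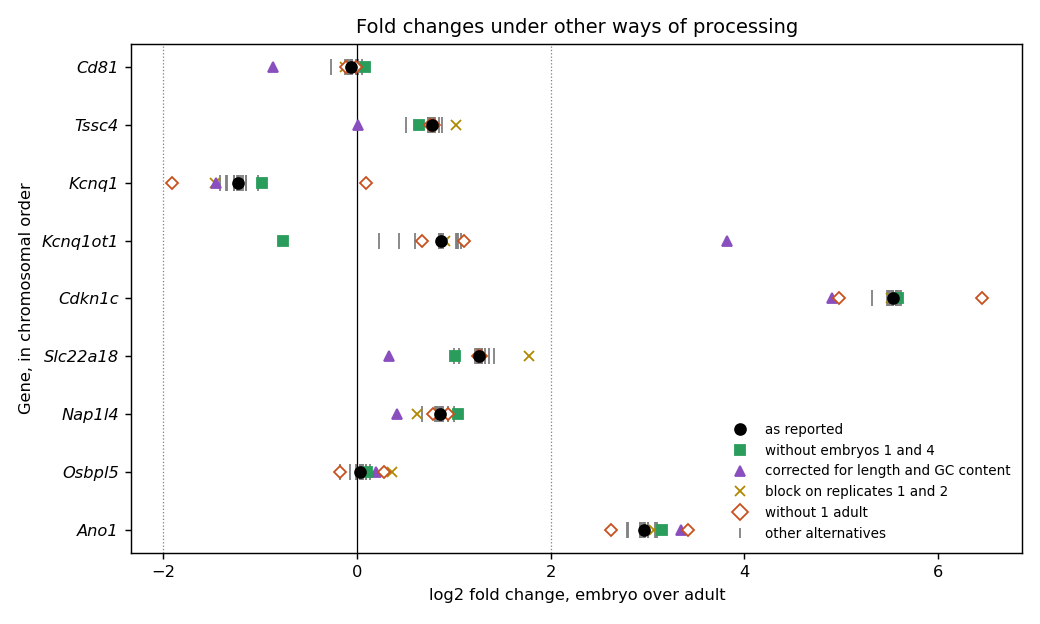
Log2 fold change, embryo over adult, of the 9 genes with counts at both stages, as reported (black) and under each alternative processing. Dotted lines mark a 4-fold difference. *Cdkn1c* and *Ano1* stay above 2 throughout, *Kcnq1* crosses 0 with adult 1 left out, and *Kcnq1ot1* runs from −0.76 without embryos 1 and 4 to 3.82 with the correction for length and GC content.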

How the data were processed

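The authors prepared directional poly(A) libraries from Rathke’s pouch of 7 embryos and the pituitary without posterior lobe of 2 adults, trimmed 75 bp read pairs (Trimmomatic 0.39), aligned them to mm10 (STAR 2.7.5b) and deposited raw counts of read pairs per gene of Ensembl release 96, without normalisation. Column 4, the strand-specific count, was used. Read pairs not assigned to a gene, 16.0% to 40.3% of a library, stayed out of library sizes and tests.

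Counts were normalised with TMM and fitted with the quasi-likelihood model of edgeR 4.0.16 in R 4.3.3, with stage as the only term, for the 19371 genes whose mean count reached 5. A call needed an adjusted p below 0.05 and a fold change above 4, the study’s thresholds. The standard error is the log2 fold change divided by the square root of F, and the 95% interval uses it with the model’s degrees of freedom. With 2 adults, spread is borrowed across genes. The test was checked on simulated data. Replicate libraries differed beyond counting noise. Tables and figures used Python 3.11.15 with pandas 2.3.3, scipy 1.17.1 and matplotlib 3.10.9.

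Named genes are the 10 genes, the tested genes from *Th* to *Ano1*, the lists of relatives and cell markers, and for *Cdkn1c* and *Kcnq1ot1* the 5 genes with the nearest profile among those whose mean count reached 100. A few genes of the lists were left out. Members and lists were chosen with earlier results of these data known. Alternatives were the Wald test of DESeq2 1.42.0, DESeq2 size factors, library size alone, edgeR’s own filter, no filter on low counts, at least 10 counts in every library, the unstranded count, a fold threshold of 2 or none, a test against a fold change of 4, a block on replicates 1 and 2, a correction for GC content and transcript length (splines, 4 degrees of freedom, fitted on genes whose mean count reached 50), leaving out embryos 1 and 4, and leaving out each library in turn. Counting the list genes under them was added after seeing the data. A comparison of protein sequences was planned but not run.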

Additional observations from a re-analysis of the deposited data

Results flagged for a closer look

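Among 113 values checked over the 7 embryos, 11 had 1 embryo far from the others by Dixon’s gap ratio, which chance gives in about 1 in 20 groups. None was a level of the 10 genes themselves. The ratio looks for 1 embryo apart, so it does not flag *Kcnq1ot1*, where embryos 1 and 4 were both high (172 and 115 CPM). Embryo 1 was high for *Ascl2* (2.2 CPM, next embryo 0.495 CPM) and *Phlda1* (85.0 CPM, next 41.2 CPM). Embryo 4 was high for *Tnfrsf23* (4.66 CPM, next 1.64 CPM), *Slc22a4* (3.95 CPM, next 0.853 CPM) and *Snhg14* (9.81 CPM, next 5.2 CPM). Embryo 2 was high for *Kcne4* (6.01 CPM, next 2.62 CPM) and the summed endothelial markers (507.0 CPM, next 285.0 CPM). Embryo 7 was high for *Nap1l3* (7.6 CPM, next 3.86 CPM), *Osbpl9* (58.9 CPM, next 41.3 CPM), *Osbpl11* (21.4 CPM, next 12.4 CPM) and *Rnf2* (107.0 CPM, next 61.4 CPM).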

How the results depend on the processing

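The number of the 10 genes called higher in the embryo was 3 as reported and under the alternatives run, except 2 with at least 10 counts required in every library (*Phlda2*, at 0 in the adults, is then not tested), 4 with no threshold on fold change (*Nap1l4* added) and 4 with the correction for length and GC content (*Kcnq1ot1* added). The number called higher in the adult was 0 under all of them. Of all tested genes, 5001 were called as reported, 2634 with at least 10 counts in every library, 8960 at a fold change above 2, 9948 with no threshold and 1744 in the test against a fold change of 4. Of the 85 tested genes of the related lists, 25 were called as reported and 13, 43, 48 and 9 under these alternatives, which were chosen for the lists after seeing the data. With at least 10 counts in every library, fewer genes were tested, 13491 in all and 67 of the lists. With a block on replicates 1 and 2, 4103 genes and 18 list genes were called. These numbers join different animals, and their deviations correlated across genes at 0.030 and −0.0145. Leaving out 1 library at a time gave 3782 to 5234 genes and 19 to 25 list genes. With library size alone the median of all genes was −0.26, and with the block −0.19, in place of −0.04. *Cd81* and *Osbpl5*, which were not called, changed sign under some alternatives, and the length and GC correction moved *Cd81* to −0.86 (adjusted p = 0.00169). With 1 adult left out, the remaining adult is assumed to vary as the embryos do. The planned comparison of protein sequences was not run. The small number of adults, unknown sex per sample and whole-tissue RNA limit what can be said, and the depth does not show levels of *Phlda2* below the stated limit.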
